A study of Arabidopsis thaliana with 4 samples.

Results

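Chromatin immunoprecipitation and sequencing (ChIP-seq) of the MYC-tagged transcription factor RVE5 gave 176 regions with a peak in at least 2 of 3 replicate lists and a centre inside a protein-coding gene on the arms of the 5 Arabidopsis thaliana chromosomes. They are called in-gene regions here. Peaks of the 3 lists that shared at least 1 bp were merged, which gave 1674 regions, 487 of them with a peak in at least 2 lists and 463 of those on the arms. The centre of a region was the mean summit position of each list, averaged over the lists. Left out as pericentromeric were chromosome 1 from 12 to 18 Mb, chromosome 2 from 0 to 6.5 Mb, chromosome 3 from 11 to 16.5 Mb, chromosome 4 from 1.5 to 5.5 Mb and chromosome 5 from 9.5 to 15 Mb, which held 7 further in-gene regions of at least 2 lists. The regions were chosen by peak presence and summit position in these same lists, so their presence, fold and pileup are described without a test.

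The samples were whole seedlings aged 14 days that overexpress RVE5-MYC. Growth was at 22 °C under 16 h of light and 8 h of dark, followed by 12 h at 29 °C, with harvest at zeitgeber time 12 h. The 3 ChIP replicates were precipitated with anti-MYC antibody, and 1 input library had no antibody. The 3 deposited lists held 676, 827 and 864 peaks in replicates 1, 2 and 3, and the input library was not analysed here. The labels name neither the promoter of the transgene nor the number of lines, and do not say whether replicates were separate batches of plants, so the spread between replicates may be technical. Signal that the antibody would give without the tag cannot be told apart from binding of RVE5-MYC, because no untagged seedlings were analysed here.

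RVE5 belongs to the REVEILLE proteins, MYB-like transcription factors related to the clock proteins CCA1 and LHY. Factors of this family recognise an AT-rich sequence, the evening element, which is common in the promoters of genes that peak towards dusk. Binding of a transcription factor inside the annotated span of a gene can lie in the transcribed leader near the start, in introns or exons, or near the transcript's end. The gene table used here (RefSeq, assembly TAIR10.1) gives no strand, exons or introns, so the start and the end of a gene could not be told apart and place is given as the distance to the nearer gene end.

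The in-gene region with the highest fold lay in ZAT12 (AT5G59820, listed as RHL41), a zinc finger gene of the response to cold, high light and oxidative stress. The fold is the authors' value of the read pileup at the summit over a local background, given per peak in each list. At ZAT12 it was 5.73, 6.19 and 5.64 in replicates 1, 2 and 3, with a mean of 5.85 ± 0.295 (SD, n = 3), on chromosome 5 from 24103109 to 24103566 (TAIR10, 1-based). The pileup was 88, 101 and 95 reads, with exact 95% Poisson intervals of 70.6 to 108, 82.3 to 123 and 76.9 to 116 that cover counting error only. All 3 summits fell within 9 bp of each other, and the whole region lay inside the gene, its centre 368 bp from the nearer end of a span of 981 bp. No other in-gene region reached the fold of ZAT12 in any replicate.

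SMT1, AGP15 and PHS2 were also among the regions with the highest folds. The region in SMT1 (AT5G13710), a sterol methyltransferase of membrane sterol synthesis, had a fold of 4.42, 4.54 and 5.23 in replicates 1, 2 and 3 (4.73 ± 0.436, SD, n = 3) on chromosome 5 from 4423542 to 4423977. AGP15 (AT5G11740), which encodes an arabinogalactan peptide of the cell surface, had 4.41, 4.72 and 3.90 (4.34 ± 0.413, SD, n = 3). Replicate 3 was the highest list at SMT1 and the lowest at AGP15. PHS2 (AT3G46970), a cytosolic glucan phosphorylase that acts on sugars released from starch, had 3.77, 3.18 and 3.35 (3.43 ± 0.308, SD, n = 3), with the neighbouring phosphate transporter gene PHT4;3 only 87.7 bp from the centre.

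The 20 in-gene regions of all 3 lists with the highest mean fold also held BBX13, BBX22, JMJD5 and COR28. BBX13 (AT1G28050) and BBX22 (AT1G78600, listed as LZF1), 2 B-box zinc finger genes of which BBX22 promotes light-dependent development, had mean folds of 4.48 ± 0.575 and 4.05 ± 0.182 (SD, n = 3). BBX13 had 3.85, 4.98 and 4.61 in replicates 1, 2 and 3, and BBX22 had 4.20, 4.11 and 3.85. The 3 replicates thus lay closer together at BBX22 than at BBX13. JMJD5 (AT3G20810, also called JMJ30), a histone demethylase gene that affects clock period, had 4.33, 4.63 and 3.47 (4.14 ± 0.603, SD, n = 3) with pileups of 89, 94 and 71 reads on chromosome 3 from 7275546 to 7276108. COR28 (AT4G33980, without a symbol in the gene table), a regulator of clock genes and freezing tolerance, had 3.90, 3.37 and 3.28 (3.52 ± 0.339, SD, n = 3), its centre 36.0 bp inside a gene end. At both JMJD5 and COR28 replicate 3 gave the lowest fold.

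CBF3, RD19, SIB1 and SNC1 were among the same 20. CBF3 (AT4G25480, listed as DREB1A), a transcription factor gene that switches on cold-response genes, had 4.24, 4.24 and 3.87 in replicates 1, 2 and 3 (4.12 ± 0.214, SD, n = 3) on chromosome 4 from 13018995 to 13019444. It stands next to CBF1, a gene of similar sequence 2577 bp from the centre, and reads of such copies may be shared. CBF1 and CBF2 also had a region of at least 2 lists, within 1000 bp beside the gene. RD19 (AT4G39090), a cysteine protease gene induced by drought, had 4.20, 3.66 and 4.03 (3.96 ± 0.277, SD, n = 3). SIB1 (AT3G56710), a protein that binds plastid sigma factors and WRKY factors in defence, had 4.28, 3.38 and 3.69 (3.78 ± 0.458, SD, n = 3). Replicate 1 was the highest list at RD19 and SIB1, and the regions of CBF3 and RD19 both crossed a gene end while that of SIB1 lay wholly inside. SNC1 (AT4G16890), an immune receptor gene in a cluster of related receptors, had 3.46, 3.56 and 4.01 (3.68 ± 0.290, SD, n = 3), and its 3 summits spread over 240 bp around a gene end. Without replicate 1 the centre of this region fell outside SNC1, as it did without replicate 3. The nearby AT4G16880, named after its values were seen, had 2.95 in replicate 1 and 3.57 in replicate 2 (3.26 ± 0.440, SD, n = 2) and no peak in replicate 3. Reads of this receptor cluster may likewise be shared between copies.

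The other named genes of the 20 were ACD32.1 (AT1G06460), a protein with the domain of small heat shock proteins, TUB5 (AT1G20010), a beta-tubulin, and KAK (AT4G38600), a ubiquitin ligase that limits trichome branching. Their mean folds were 4.11 ± 0.319, 3.76 ± 0.282 and 3.48 ± 0.256 (SD, n = 3). TUB5 differed from most by its place: with 4.07, 3.70 and 3.52 in replicates 1, 2 and 3, its centre lay 1263 bp from the nearer gene end. The remaining 5 regions lay in AT4G14270, AT3G17030, AT2G30600, AT1G07050 and AT5G64400, which likewise have no symbol there, with mean folds of 3.51 to 4.13. Of all 20, AT2G30600 was the least even between replicates, with 5.15, 3.84 and 2.63 in replicates 1, 2 and 3 (3.87 ± 1.26, SD, n = 3). AT5G64400 was the most even, with 3.41, 3.50 and 3.63 (3.51 ± 0.110, SD, n = 3).

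**Figure D1:**
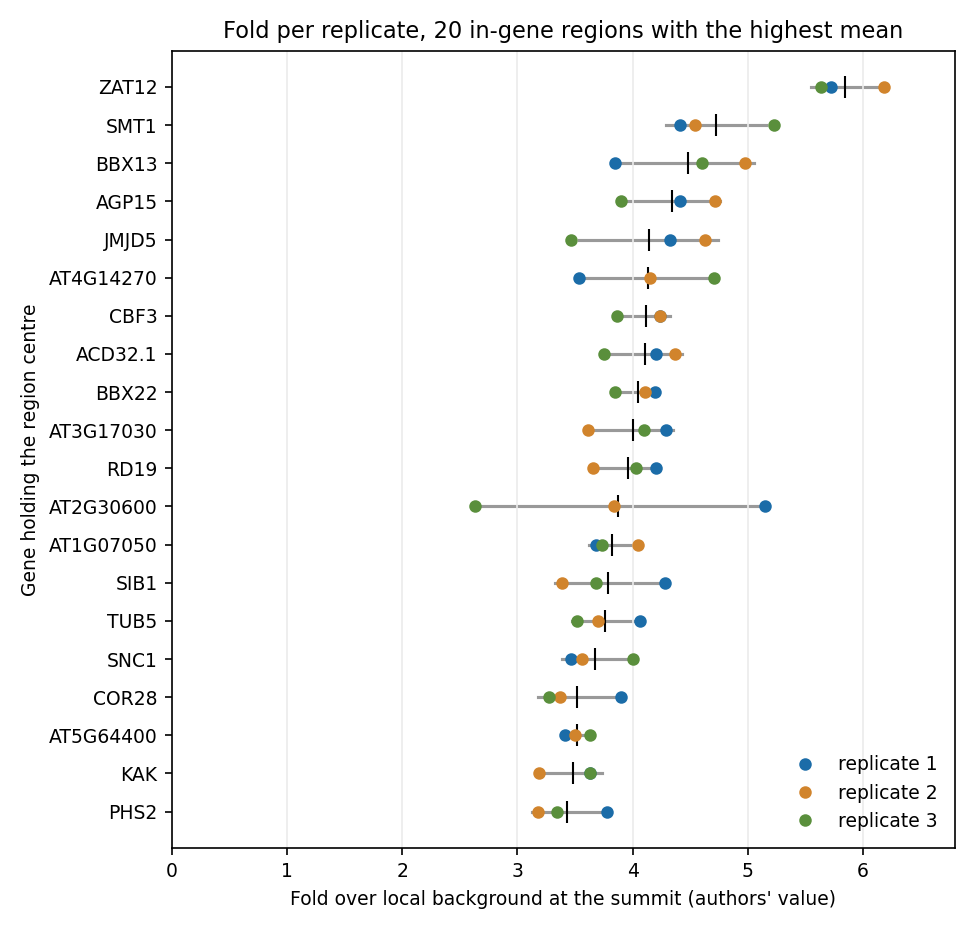
Fold over the local background in each replicate (points), with the mean (tick) and SD (grey line, n = 3), for the 20 in-gene regions of all 3 lists with the highest mean fold, by the gene that holds the centre. ZAT12 stands apart at 5.85 ± 0.295, and AT2G30600 has the widest spread, from 2.63 in replicate 3 to 5.15 in replicate 1.

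Over all 176 in-gene regions the mean fold had a median of 2.72 and a range of 1.96 to 5.85, and over the 156 outside these 20 a median of 2.63 and a range of 1.96 to 3.38. Over all, it reached 3 in 43 of the 176 regions and 4 in 10, and was under 2.5 in 52. By list, the median fold was 2.77, 2.74 and 2.70 and the median pileup 41, 43 and 44 reads in replicates 1, 2 and 3, which is 42.7 ± 1.53 reads (SD, n = 3). A pileup of 41 reads has an exact 95% Poisson interval of 29.4 to 55.6, one of 43 reads 31.1 to 57.9, and one of 44 reads 32.0 to 59.1. These intervals give the counting error of a single pileup of that size. They do not test whether in-gene regions differ from each other.

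A peak in all 3 lists was found at 71 of the 176 in-gene regions (40.3%), and in 2 lists at 105. Of the 105, 33 came from replicates 1 and 2, 32 from replicates 1 and 3, and 40 from replicates 2 and 3. The share of merged arm regions that reached at least 2 lists was 28.1% for centres inside a protein-coding gene (176 of 627), against 31.2% for centres within 1000 bp beside one (216 of 693) and 29.5% for all arm regions. In-gene regions of 3 lists had a median mean fold of 2.96, against 2.58 for those of 2 lists. In-gene regions of a single list, which did not meet the rule, had 2.41. Across the 71 in-gene regions of 3 lists, replicates 1 and 2 ranked the fold with a Spearman's rho of 0.684, replicates 1 and 3 with 0.681, and replicates 2 and 3 with 0.778. For the pileup the rho of the same pairs was 0.729, 0.773 and 0.787. These points share the local background of their position in each list, and regions are not replicates. The highest of the 3 folds was in replicate 1 at 31 of the 71 regions, in replicate 2 at 21 and in replicate 3 at 19.

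The pileup over the fold gives the background each list set against a peak. With the fold taken as (pileup + 1) / (background + 1), the form the MACS2 peak caller uses and an assumption here, the background at in-gene regions had a median of 14.9 reads and a range of 8.96 to 20.4. The background thus varied 2.27-fold between regions and the mean pileup 3.79-fold. CAK1AT (AT4G28980), a kinase that activates cyclin-dependent kinases and named here after its values were seen, had the lowest mean pileup, 25 reads, and also the lowest background, 8.96 reads, so that its mean fold of 2.62 ± 0.335 (SD, n = 2) stood close to the median. JMJD5 had the second highest mean pileup after ZAT12, 84.7 against 94.7 reads, but a background of 19.7 against 15.4 reads, and so ranked 5 by fold.

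**Figure D2:**
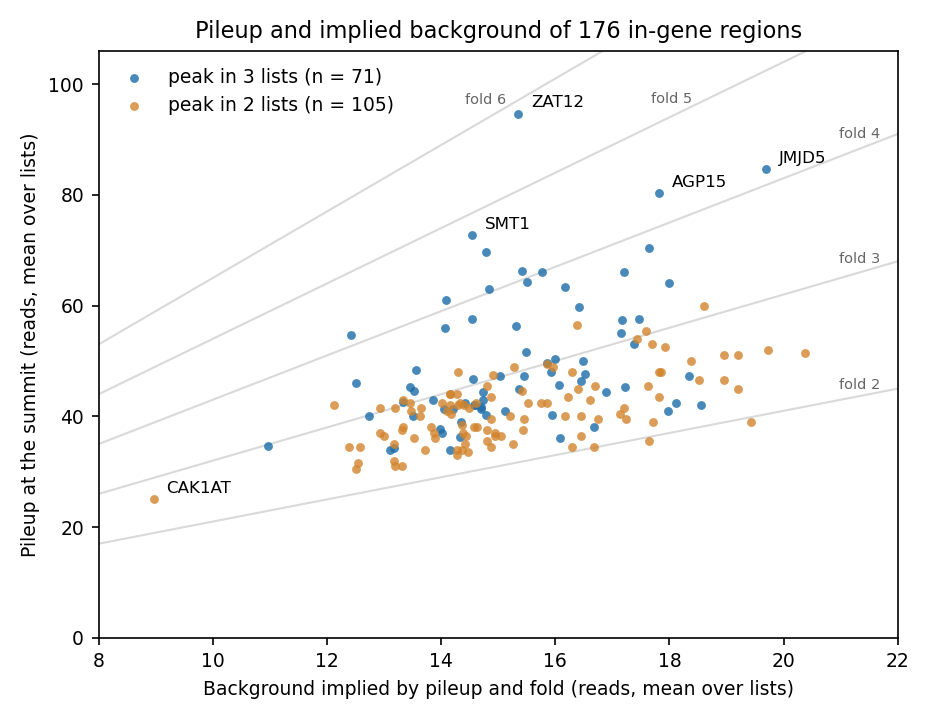
Mean pileup at the summit against the background implied by pileup and fold, both in reads, for the 176 in-gene regions (blue, peak in 3 lists, n = 71; orange, peak in 2 lists, n = 105), with grey lines of equal fold. ZAT12 has the highest mean pileup, 94.7 reads, at a background of 15.4 reads, and CAK1AT has the lowest of both.

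In-gene centres gathered near the gene ends. Of the 176, 64 (36.4%) lay within 100 bp of the nearer end of their gene, 113 (64.2%) within 250 bp and 140 (79.5%) within 500 bp. The outer 250 bp at both ends made up 24.0% of the span of these genes on average, and the outer 500 bp 46.4%. The median distance to the nearer end was 138 bp in genes with a median length of 2462 bp, against a median length of 2108 bp over all arm protein-coding genes. In-gene regions of a single list lay within 250 bp of an end in 50.6% of 451 cases, with a median distance of 245 bp. Within the in-gene regions, the share within 250 bp was 59.2% for those of 3 lists and 67.6% for those of 2 lists. The lower-coordinate end was the nearer one for 85 regions and the higher-coordinate end for 91. By chromosome, 48, 31, 27, 30 and 40 in-gene regions lay on chromosomes 1 to 5, which hold 6523, 3486, 5042, 3891 and 5840 arm protein-coding genes.

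**Figure D3:**
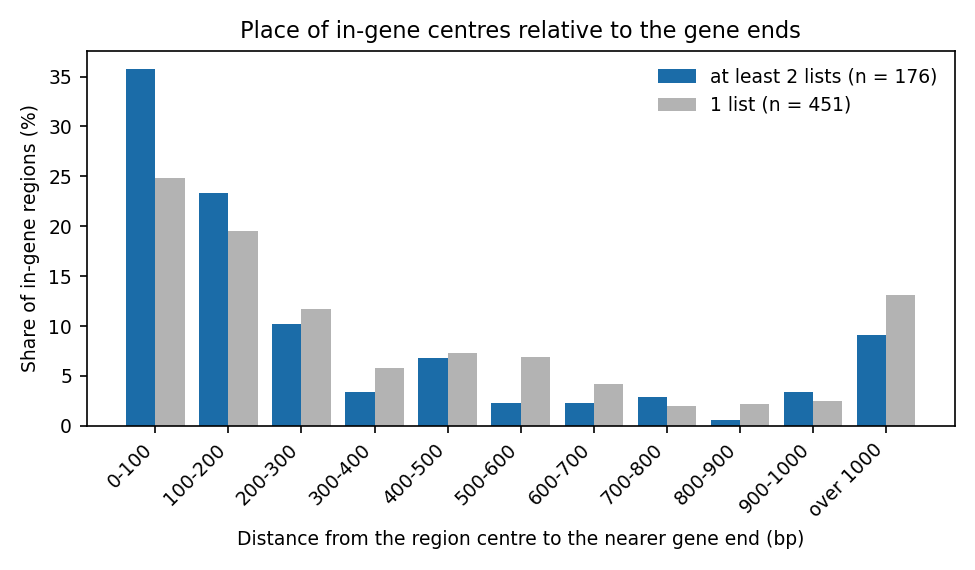
Share of in-gene regions by distance from the centre to the nearer gene end, in bins of 100 bp with all distances over 1000 bp in the last bin, for regions of at least 2 lists (blue, n = 176) and of 1 list (grey, n = 451). The first bin holds 35.8% of the regions of at least 2 lists and 24.8% of those of 1 list.

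Many in-gene regions were not contained by their gene. The merged region crossed a gene end in 109 cases and lay wholly inside in 67, with a median width of 435 bp. Examples of the first kind with a centre very near the end are TPR1 (AT1G80490), a corepressor of the TOPLESS type, with the centre 17.3 bp inside and a fold of 2.99, 2.76 and 3.79 in replicates 1, 2 and 3 (3.18 ± 0.539, SD, n = 3), and EDL3 (AT3G63060), an F-box gene of abscisic acid signalling, 47.7 bp inside with 3.37, 3.07 and 2.84 (3.09 ± 0.270, SD, n = 3). SVP (AT2G22540), a repressor of flowering whose protein responds to ambient temperature, shows the second kind, with 3.37, 3.04 and 3.12 (3.18 ± 0.172, SD, n = 3) and a centre 233 bp inside. TPR1, EDL3 and SVP were named after their values were seen. At the edge of the rule, the in-gene centres nearest to an end were 1.5 bp (AT1G73950), 3 bp (AT3G15630) and 7.5 bp (OZF2) inside, with mean folds of 2.40, 2.28 and 2.35, while the nearest outside were 3 bp (Fes1B), 3.33 bp (SEX4) and 7 bp (SHL1) from a gene, with 2.46, 2.84 and 2.25. Within 10 bp of a gene end lay 3 centres inside and 6 outside.

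The region often lay close to a second gene. Another protein-coding gene lay within 1000 bp of 91 of the 176 centres, and within 250 bp of 32, among them the regions in ACD32.1 (AT1G06470 at 99.0 bp), BBX22 (NADK3, an NADH kinase gene, at 147 bp) and RD19 (SHL1 at 106 bp). At 4 regions 2 protein-coding spans overlapped at the centre, CPK2 with NUP1, AT4G18840 with OFP5, AT4G20250 with PCAP1 and TMN1 with FD1, and the gene in which the centre lay deeper was taken. At 5 regions the centre also lay in a gene annotated as other than protein-coding. One of these was the region in EXO70H7 (AT5G59730), an exocyst subunit, whose centre lay 861 bp from the heat shock gene HSP18.2, with a fold of 2.78, 3.01 and 2.87 in replicates 1, 2 and 3 (2.89 ± 0.117, SD, n = 3). Which of these genes a region belongs to was not tested.

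Far from both ends lay few centres, 36 beyond 500 bp and 16 beyond 1000 bp. Their fold was close to that of the others. In replicates 1, 2 and 3 the median fold was 2.77, 2.62 and 2.62 for the 36 regions beyond 500 bp, against 2.77, 2.76 and 2.75 for the 113 regions within 250 bp. The median pileup was 39, 42 and 44 reads beyond 500 bp, against 41, 44 and 44 reads within 250 bp. None of the 36 had a mean fold of 4 or more, against 8 of the 113. Apart from KAK, the deepest were FAD3 (AT2G29980), a fatty acid desaturase of membrane lipids, with the centre 1800 bp from the nearer end and a fold of 2.32 and 2.33 in replicates 1 and 2, and CKX7 (AT5G21482), a cytokinin oxidase, 1711 bp from an end with 2.18, 2.24 and 2.37 in replicates 1, 2 and 3. Both were named after their values were seen, and their folds are below the median of all in-gene regions.

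KAK and ELF3 were the only genes with more than 1 in-gene region, so the 176 regions fell in 173 genes. KAK, with a span of 9078 bp, held 3, each with a peak in every replicate. The first, on chromosome 4 from 18043237 to 18044695, was 1459 bp wide with a fold of 3.63, 3.18 and 3.63 in replicates 1, 2 and 3. The second, from 18045402 to 18046584, had 2.29, 3.19 and 3.32 (2.93 ± 0.560, SD, n = 3). The last, from 18048440 to 18049219, had 3.18, 3.48 and 2.94 (3.20 ± 0.267, SD, n = 3). Replicate 2 had separate peaks where the other lists had 1 broad peak, at the first and the second region. The pileups at KAK, 36 to 53 reads, were in the range of other in-gene regions. ELF3 (AT2G25930), a scaffold of the evening complex that represses growth genes at night and loses activity in warmth, held 2 regions in a span of 4381 bp. One, on chromosome 2 from 11062240 to 11063110, had 3.40, 3.03 and 3.72 (3.38 ± 0.348, SD, n = 3), and the other, from 11060106 to 11060730, had 2.52, 2.31 and 3.31 (2.71 ± 0.530, SD, n = 3). Replicate 3 was the highest and replicate 2 the lowest at both. Their summits were spread over 502 and 374 bp between replicates, against a median of 76.5 bp over all in-gene regions, and 102 of the 176 had summits within 100 bp.

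**Figure D4:**
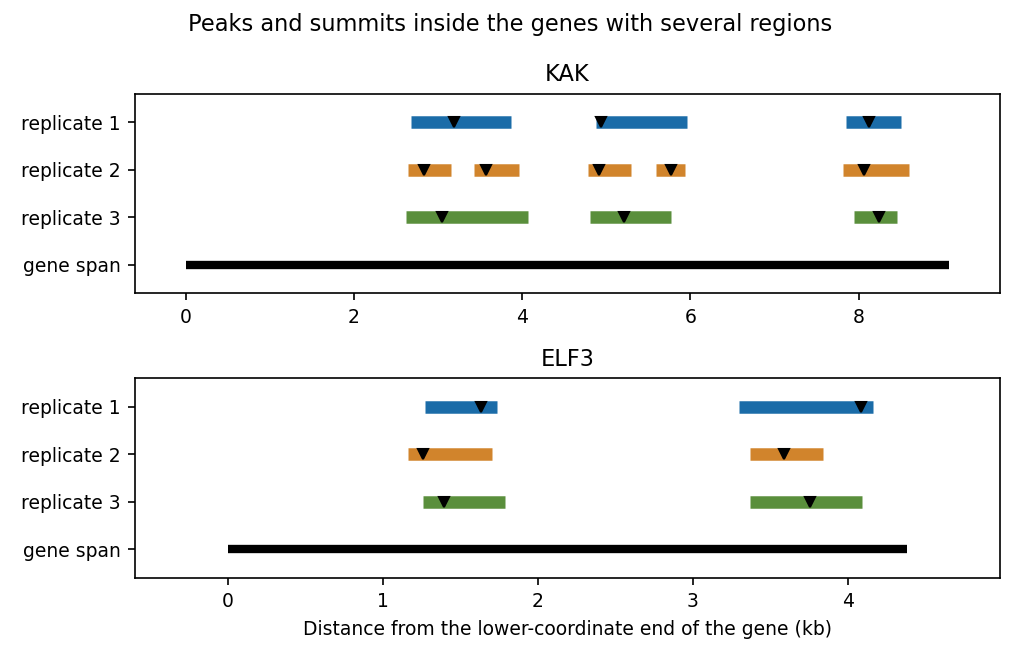
Peaks (coloured bars) and summits (black triangles) of each replicate in KAK and ELF3, by distance in kb from the lower-coordinate end of the gene, whose span is the black bar. KAK holds 3 separate regions in a span of 9078 bp and ELF3 holds 2 in 4381 bp, all with the centre more than 500 bp from the nearer gene end.

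The widest in-gene region, 1791 bp on chromosome 1 from 28459766 to 28461556 in AT1G75800, showed how merging can join neighbouring peaks. Its fold was 3.18, 2.75 and 2.47 in replicates 1, 2 and 3, but the summits of the lists were up to 1488 bp apart. In all, 13 in-gene regions had summits more than 300 bp apart. CAT3 (AT1G20620), a catalase gene under clock control, was one, with summits 670 bp apart in replicates 2 and 3, a fold of 2.54 and 2.35 there, and no peak in replicate 1.

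Across gene groups, counts are read beside the share of all 24782 arm protein-coding genes that held an in-gene region, 0.698% (173 genes). The lists were chosen with earlier results of these data known, so no list was tested. Of 27 core clock genes on the arms 4 held one (14.8%). Beside ELF3 these were RVE7 (AT1G18330, listed as EPR1), a REVEILLE relative of RVE5, with a fold of 3.19 and 2.81 in replicates 2 and 3, and LNK3 (AT3G12320) and LNK4 (AT5G06980), of the family of LNK clock coactivators. LNK3 had 2.83 and 3.30 in replicates 1 and 2, and LNK4 had 2.40 and 1.93 in replicates 1 and 3. Of these 4 genes only ELF3 had a peak in every list. Another 7 core clock genes, GI and TOC1 among them, had their region of at least 2 lists within 1000 bp beside the gene and not inside it, where the share over all arm genes was 1.25%. No core clock gene had both, which says little, since 4 of all arm genes did (0.0161%). The core clock count was 2 without replicate 1 (ELF3, RVE7), without replicate 2 (ELF3, LNK4) and without replicate 3 (ELF3, LNK3), as both remaining lists then had to hold a peak.

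Of 12 clock output genes 3 held an in-gene region (25%), COR28, CAT3 and GRP8 (AT4G39260, listed as CCR1), an RNA-binding protein of a clock-linked feedback loop, with 3.14 and 3.09 in replicates 1 and 2 and none in replicate 3. Within 1000 bp beside the gene, 5 of the 12 had a region of at least 2 lists, against 1.25% of all arm genes. These were GRP7, COR27, CDF1, CDF3 and CAT3, so that CAT3 had both. Without replicate 2 COR28 alone held an in-gene region, and without replicate 1 or 3 the in-gene count was 2. Of 12 cold response genes 5 held an in-gene region (41.7%). That count was 2 without replicate 1 (CBF3, ZAT12), the same as for clock output genes, 3 without replicate 2 (CBF3, ZAT12, COR47) and 4 without replicate 3. Another 2 of the 12, CBF1 and CBF2, had a region of at least 2 lists beside the gene and not inside it. Among the 5 with an in-gene region, ZAT12 and CBF3, both regulators, had peaks in 3 lists and the highest folds. The effector genes COR47 (AT1G20440, 2.96 and 2.93 in replicates 1 and 3), COR15B (AT2G42530, 2.61 and 3.05 in replicates 1 and 2) and KIN2 (AT5G15970, 2.51 and 2.59 in replicates 1 and 2), which encode proteins that protect cells in cold and drought, had peaks in 2 lists only. COR15B stands next to its copy COR15A, 423 bp from the centre, and KIN2 next to KIN1. Reads of such copies may be shared.

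Among 10 jasmonate repressor genes JAZ9 (AT1G70700, listed as TIFY7) held one (10%), with a fold of 3.14, 2.85 and 3.19 in replicates 1, 2 and 3. Among 10 B-box genes of the list BBX22 did (10%). BBX13 is not on that list, and of 31 arm genes with a BBX symbol or synonym these were the 2 with an in-gene region (6.45%). None of 21 heat response genes held one (a count of 0 of 21 leaves room for 14.3%), and 3 of them had a region beside the gene. HSP18.2 of this list, 861 bp from the centre in EXO70H7, is not among the 3, as that centre lies inside another gene. None of 17 light and warmth regulators held an in-gene region of at least 2 lists (0 of 17 leaves room for 18%). Of these, 2, PIF4 and PHYB, had a region beside the gene, and 4, PIF4, PIF5, PHYE and CRY2, had an in-gene region in a single list. None of 14 highly transcribed leaf genes of the list held an in-gene region of at least 2 lists (0 of 14 leaves room for 21.4%). Of these, 1, RBCS1A, had a region of at least 2 lists beside the gene, against 1.25% of all arm genes. In a single list, 4, RBCS1B, RBCS3B, LHCB3 and CA1, had an in-gene region. Over all arm protein-coding genes 437 held an in-gene region of a single list (1.76%). The leaf list does not take in every such gene. FED A (AT1G60950), a ferredoxin gene outside it and named after its values were seen, held an in-gene region with 1.97 and 2.61 in replicates 2 and 3.

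A further 4 lists were written after the genes of the in-gene regions had been read, so their counts are descriptions of what was seen. Of 15 starch breakdown genes 3 held an in-gene region (20%). They were PHS2, LDA (AT5G04360), a debranching enzyme with 2.74, 2.77 and 2.77 in replicates 1, 2 and 3, and DPE1 (AT5G64860), a disproportionating enzyme with 2.01 and 1.91 in replicates 1 and 3. Only AT1G10657, with 1.98 and 1.94 in replicates 2 and 3, had as low a mean fold as DPE1, 1.96. The starch count was 2 without replicate 1 or 3 (LDA, PHS2), and 4 without replicate 2, where SEX4 was added. Of 28 genes of abscisic acid synthesis and signalling 4 did (14.3%), the receptor gene PYL8 (listed as RCAR3, 2.0 and 2.11 in replicates 1 and 3), the kinase gene SNRK2.3 (2.41 and 2.84 in replicates 2 and 3), the transcription factor gene ABI5 (2.25 and 2.99 in replicates 2 and 3) and the synthesis gene NCED6 (2.35 and 2.38 in replicates 2 and 3). None of these 4 had a peak in all lists, and the count was 3 without replicate 1, 1 without replicate 2 and 0 without replicate 3. Of 13 auxin receptor and PIN transporter genes TIR1 (2.98 and 2.64 in replicates 1 and 2) and PIN7 (2.45 and 2.33 in replicates 1 and 3) did (15.4%), against 0 without replicate 1 and 1 without replicate 2 or 3. Of 7 fatty acid desaturase genes FAD3 and FAD5 (2.83 and 2.38 in replicates 1 and 3) did (28.6%), against 0 without replicate 1 and 1 without replicate 2 or 3.

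**Figure D5:**
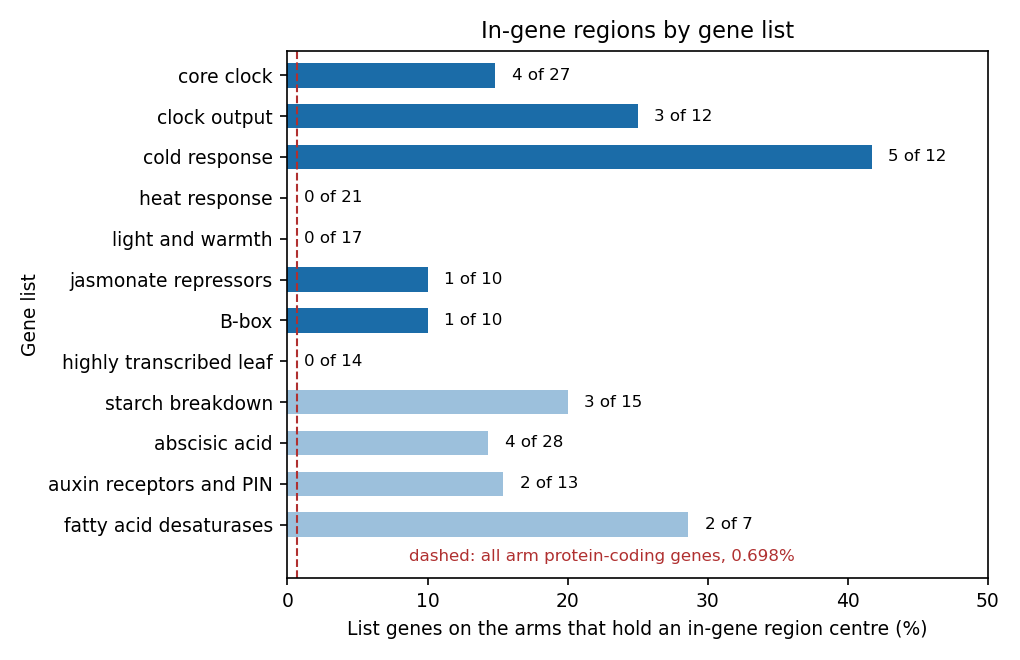
Share of the arm genes of each list that hold an in-gene region of at least 2 replicate lists, with counts beside the bars (dark, the 8 first lists; light, the 4 written after the genes were read), and the share of all arm protein-coding genes, 0.698%, as a dashed line. Cold response genes stand at 5 of 12 with all replicates and at 2 of 12 without replicate 1 (not drawn), and heat response, light and warmth, and highly transcribed leaf genes have 0.

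Set beside the 216 regions of at least 2 lists within 1000 bp beside a gene, the 176 in-gene regions had a similar median fold and a lower top. The median fold in replicates 1, 2 and 3 was 2.77, 2.74 and 2.70 in genes, against 2.82, 2.69 and 2.77 beside genes, and the highest mean fold was 5.85 in genes, against 8.12 beside genes. A mean fold of 4 or more was found in 10 of 176 in-gene regions, against 17 of 216 beside genes. A peak in all 3 lists was found in 40.3% of in-gene regions, against 38.4% beside genes. Among these regions of 3 lists the median fold was lower in genes in each replicate. It was 2.99, 2.92 and 2.94 in replicates 1, 2 and 3, against 3.19, 3.07 and 3.17 beside genes. A mean fold of 3 or more was found in 45.1% of them in genes, against 57.8% beside genes. Centres of both sets lay near gene ends. Within 250 bp of an end lay 64.2% of in-gene centres, and 61.6% of those beside genes lay within 250 bp of a gene. Within 100 bp the shares were 36.4% and 30.6%. Centres beside genes were limited to 1000 bp by definition. Of all arm regions of at least 2 lists, 38% had the centre inside a protein-coding gene, while such genes cover 64.4% of the arm sequence. The same share was 40.8% for regions of a single list. None of these differences was tested, because the same peaks chose the regions.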

How the data were processed

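The authors deposited 1 peak list for each ChIP replicate. The submitters' processing notes name the genome build TAIR10 and the software CASAVA 1.4. Which aligner and peak caller ran, at which threshold, and how the input entered are not given in the sources here. Per the file headers, the lists give the summit, the signal there as a read pileup, a fold over background (a ratio), and the −log10 of a p-value and a q-value. Library totals are unknown. Where a list had several peaks in a region, the one with the best p-value gave its fold and pileup.

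Gene names and spans came from RefSeq on TAIR10.1, which differs from TAIR10 in the organelle genomes, and gene coordinates are not printed. Of 195 entries of the gene lists, 188 had the printed name as a symbol or synonym in that table. The others, COR28 among them, were matched by locus and carry their usual names. A centre was assigned to the protein-coding gene spanning it. Regions beside a gene had the centre outside every annotated gene, so a centre inside a neighbouring gene was not counted as beside. Shares of list genes and of arm genes count genes with their midpoint outside the left-out windows. A limit for a share of 0 is 3 counts of the total and, like the intervals, covers counting error only.

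Genes named by rule were those of the 20 in-gene regions of 3 lists with the highest mean fold, the 5 highest pileups and the widest region, genes with several regions, and genes of the 8 first lists that held one, 31 in all. Members and lists were chosen with earlier results of these data known. No genome sequence or strand was used here, so no motif or sequence is given. The planned classes of exon, intron and untranslated region were not made. Merging and placing were tested on simulated peaks. Python 3.11.15, pandas 2.3.3, NumPy 2.4.6 and SciPy 1.17.1 were used. A total of 8 alternatives were tried.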

Additional observations from a re-analysis of the deposited data

How the results depend on the processing

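The 176 in-gene regions numbered 71 when all 3 lists had to hold a peak and 103 in the better 50% of peaks per list, ranked on p. It was 131 where summits of at least 2 lists had to lie within 100 bp, a wider set than the 102 regions whose summits all did. Leaving out 1 replicate gave 102 to 110, since both remaining lists then had to hold a peak. The share of arm regions with the centre in a protein-coding gene, 38%, was 37.1% to 39.0% without 1 replicate, 36.4% with summits of 2 lists within 100 bp, 39.6% in the better 50% and 38.9% with the midpoint as centre. The share within 250 bp of a gene end, 64.2%, was 59.2% with all 3 lists, 59.8% to 66.0% without 1 replicate, 65.6% with summits of 2 lists within 100 bp, 66.0% in the better 50% and 62.8% with no window left out. The median fold, 2.72, was 2.96 with all 3 lists, 2.70 to 2.87 without 1 replicate, 2.81 with summits of 2 lists within 100 bp, 2.97 in the better 50% and 2.77 with the midpoint. The median pileup, 42.4 reads, was 46.0 with all 3 lists, 46.7 in the better 50% and 43.5 to 44.0 without 1 replicate. Requiring more lists, closer summits or better peaks leaves fewer regions by construction; for the other shifts the cause was not tested. Of the 31 named genes 23 held an in-gene region with all 3 lists, 24 without replicate 1, 25 without replicate 2, 26 without replicate 3, 25 with summits of 2 lists within 100 bp, 28 in the better 50%, 26 with the midpoint and 31 with no window left out. With the midpoint, BBX22, AT3G17030, RD19, LNK3 and RVE7 fell outside the span, and with summits of 2 lists within 100 bp ELF3, COR47, KIN2, CAT3, LNK4 and AT1G75800 were lost. The counts for gene lists were put through the same alternatives after the data were seen. Core clock genes, 4 of 27, numbered 1 with all 3 lists, 2 without any 1 replicate, 2 with summits of 2 lists within 100 bp and 2 with the midpoint. Clock output genes, 3 of 12, numbered 1 with all 3 lists, 1 to 2 without 1 replicate and 5 with the midpoint. Cold response genes, 5 of 12, numbered 2 with all 3 lists, 2 to 4 without 1 replicate and 3 with summits of 2 lists within 100 bp. Heat response genes, 0 of 21, numbered 1 with the midpoint (HSFA3). Alternatives that need exon models or sequence were not run. No paired analysis was possible because the input gave no peaks to set against the ChIP replicates. With a median pileup of 42.4 reads, a peak absent from 1 list does not show lower binding there.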

Other observations

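The backgrounds implied by pileup and fold, taken over all peaks of a list, often fell on whole multiples of a step, which was picked as the one that gave the most whole multiples. The step was 0.412 reads in replicate 1, 0.455 in replicate 2 and 0.460 in replicate 3. Within 0.05 of a step of a whole multiple lay 54.4%, 56.2% and 48.5% of the peaks, where that tolerance spans 10% of a step. Because the step was picked to raise this share, the 10% is not the share to expect without steps, and no test was made.

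FER, ER, HSL2 and APRR2 also held an in-gene region and are named after their values were seen. FER (AT3G51550), a receptor kinase of cell growth, had a fold of 2.79 and 2.48 in replicates 2 and 3, ER (AT2G26330), a receptor kinase of organ shape, had 2.60 and 2.38 in replicates 2 and 3, and HSL2 (AT5G65710), a receptor kinase of floral organ shedding, had 2.07, 2.62 and 1.97 in replicates 1, 2 and 3. APRR2 (AT4G18020), a relative of the clock pseudo-response regulators, had 2.17, 2.96 and 2.77 with summits spread over 331 bp, and its centre lay 730 bp from the nearer gene end. By symbol stem, the counts of arm genes with an in-gene region were 2 of 31 B-box genes (6.45%), 2 of 52 CIPK and CPK kinase genes (3.85%), 1 of 29 GATA (3.45%), 2 of 63 UGT (3.17%), 1 of 33 ERF (3.03%), 1 of 42 aquaporin (2.38%), 1 of 45 bZIP and 1 of 45 GST (2.22% each), 1 of 67 WRKY (1.49%), 1 of 93 NAC (1.08%), 2 of 220 CYP (0.909%), 0 of 117 MYB and 0 of 18 HSF genes, beside 0.698% of all arm protein-coding genes. Each count is 2 or fewer, and the stems do not take in every member of these families. The bZIP count holds TGA3 but leaves out ABI5, a bZIP gene that also held an in-gene region.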
